A study of Mus musculus with 6 samples.

Results

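Troponin and tropomyosin genes were compared between hearts of mice lacking the glucocorticoid receptor in cardiomyocytes and control hearts. The members were chosen by name: Tnni1, Tnni3, Tnnt1, Tnnt2, Tnnt3, Tnnc1, Tnnc2, Tpm1, Tpm2 and Tpm3, which are 10 of the 52550 mouse genes counted. All 10 mapped to 1 gene identifier each in the GRCm38 annotation. The study profiled whole hearts at postnatal day 7 by 3′ mRNA sequencing in 2 groups of 3 libraries, which the labels call biological replicates. The GR-cKO group carries a cardiomyocyte-specific deletion of the glucocorticoid receptor gene (Nr3c1), and the control group is named ctrl. The Cre line, the deleted exon, the strain and the alleles of the control mice are not named by the labels used here.

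Troponin and tropomyosin are the calcium switch of the thin filament. Tropomyosin lies along actin and blocks myosin, troponin T anchors the troponin complex to tropomyosin, troponin I holds the filament in the blocked state, and troponin C binds calcium and releases that block. Striated muscles build the switch from different paralogues: the heart uses the cardiac genes Tnni3, Tnnt2 and Tnnc1 (the last shared with slow skeletal muscle) with Tpm1, whereas Tnni1 and Tnnt1 are the slow skeletal genes and Tnnt3 and Tnnc2 the fast skeletal ones. The fetal heart uses slow skeletal troponin I (Tnni1), and around and after birth the cardiac form (Tnni3) takes its place. Tnni3 protein has an N-terminal extension that protein kinase A phosphorylates and Tnni1 protein lacks. The ratio of Tnni1 to Tnni3 reads therefore serves as a measure of this postnatal switch.

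Libraries held 18135540 to 22999192 reads, of which spike-in transcripts took 1.63 to 2.01%. As a check of the labels, Nr3c1 had 1902 to 2618 reads in controls and 1031 to 1045 in GR-cKO libraries, and all GR-cKO libraries were lower. It was the only gene past the threshold among 14860 tested, 0.00673% of them (edgeR adjusted p = 0.00101). GR-cKO replicate 3 stood apart: Gm42418, a transcript that overlaps ribosomal RNA sequence, took 10.9% of its mouse gene reads against 5.47 to 7.69% in the other 5 libraries. Fold changes and ratios of the members that move without it are therefore also given without it. By Xist and Y-linked reads, replicate 1 of each group was female and replicates 2 and 3 were male. All 10 cardiomyocyte markers (Myh6, Actc1 and Ttn among them) were detected, with a summed level of 65036 to 76931 CPM in controls and 70897 to 85914 CPM in knockout hearts, as the labelled tissue would have it. CPM are reads relative to library size, scaled by the trimmed mean of M-values (TMM). In whole tissue, fewer cells of a type and less RNA per cell cannot be told apart.

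The stretches upstream of the RefSeq starts of the troponin I genes are shown because these genes form the pair on which the switch is measured. They run from 160 to 20 bases before the RefSeq start (GRCm38.p6), read 5′ to 3′ on the strand of the gene, with capitals for the hexamer TGTTCT, which is 1 arm of the glucocorticoid response element, and for the E-box CANNTG, the motif of basic helix-loop-helix factors. The Tnni1 window lies at chr1:135799261-135799401 on the plus strand and the Tnni3 window at chr7:4522548-4522688 on the minus strand. Both lie inside the annotated gene spans (chr1:135779434-135810989 and chr7:4518305-4524229), which begin further upstream, and the stretches before those outer starts were not examined.
Tnni1: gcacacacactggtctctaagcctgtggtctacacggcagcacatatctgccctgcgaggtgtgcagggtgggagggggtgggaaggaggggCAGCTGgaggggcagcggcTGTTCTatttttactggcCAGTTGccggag
Tnni3: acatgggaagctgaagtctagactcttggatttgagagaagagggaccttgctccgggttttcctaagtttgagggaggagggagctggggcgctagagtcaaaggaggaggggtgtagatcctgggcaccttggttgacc
The Tnni1 window held 1 TGTTCT match and 2 E-boxes, and the Tnni3 window held neither. Among the other members with a window, TGTTCT was also found for Tnnt2, and E-boxes for Tnnc1, Tnnc2, Tnnt1 and Tnnt2. On either strand, 9.1% of the 32851 mouse windows of this length held TGTTCT and 45.9% an E-box. The full element, AGAACA and TGTTCT with 3 bases between them, was in 2 of these windows and in neither troponin I window. The other motifs searched on both strands were CATTCC (M-CAT, bound by TEAD factors), GATAA (GATA factors), the CArG box and the MEF2 site, and neither window held a match. In the Tnni1 window the letters TGTTCT do not overlap the E-boxes. A match describes these letters only and is no evidence of binding.

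Slow skeletal troponin I was higher relative to the cardiac form in every GR-cKO heart than in every control heart. There were 0.188, 0.186 and 0.189 Tnni1 reads per Tnni3 read in control replicates 1, 2 and 3. In GR-cKO replicates 1, 2 and 3 there were 0.208, 0.207 and 0.215. The groups did not overlap, and the gap between them exceeded the spread within either. The mean ratio was 0.188 ± 0.00133 in controls and 0.21 ± 0.00455 in knockout hearts (± SD over 3 hearts a group), a difference of 0.16 on the log2 scale, or 12.0%. The 2-sided exact permutation p was 0.1, the smallest that 3 against 3 libraries can give, and 0.6 after Benjamini-Hochberg adjustment over the 6 isoform ratios, so the difference did not pass a threshold of 0.05 and could not have.

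The ratio does not depend on how libraries are scaled, since it is formed within a library. As a share of all troponin I reads (Tnni1, Tnni2 and Tnni3), Tnni1 made up 15.8% (95% Wilson interval 15.6 to 16.0%), 15.7% (15.5 to 15.9%) and 15.9% (15.7 to 16.0%) in control replicates 1, 2 and 3. Its share in GR-cKO replicates 1, 2 and 3 was 17.2% (17.0 to 17.4%), 17.1% (16.9 to 17.3%) and 17.7% (17.5 to 17.9%). These intervals, from 133255 to 179503 troponin I reads per library, cover counting error only, and without molecular identifiers a read need not be an independent molecule. The interval of every GR-cKO library lay above that of every control library. The difference was 0.15 on the log2 scale without GR-cKO replicate 3 and ran from 0.15 to 0.17 with each library left out. Within the female mice the ratio was 0.188 in the control and 0.208 in the GR-cKO heart, and among the males alone the difference was 0.17.

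The separation was seen against Tnni3 and not against Tnnt2, Tnnc1, Tpm1 or the summed cardiomyocyte markers. These denominators were chosen after the data were seen. Per 1000 Tnnt2 reads, control replicates 1, 2 and 3 had 157, 175 and 161 Tnni1 reads and GR-cKO replicates 181, 173 and 203, and the groups overlapped (log2 difference 0.17, exact permutation p = 0.2). Against Tnnc1 they were 430.4, 474 and 412 in controls and 407, 439 and 604 in knockout hearts (log2 difference 0.12, exact p = 0.7), with GR-cKO replicate 1 below every control. Against Tpm1 the values were 121, 138 and 119 in controls and 127, 133 and 143 in knockout hearts (log2 difference 0.09, exact p = 0.3). Against the summed cardiomyocyte markers they were 15.0, 17.4 and 14.6 and 15.3, 17.4 and 19.9 (log2 difference 0.15, exact p = 0.3). The log2 difference was of like size against Tnnt2 and the markers, but these denominators varied more within a group: the SD of the log2 ratio in control hearts was 0.0814 against Tnnt2 and 0.0102 against Tnni3. Tnni3 itself did not separate the groups against Tnnt2 (837, 941 and 854 per 1000 in control, 868, 836 and 944 in knockout hearts).

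**Figure D1:**
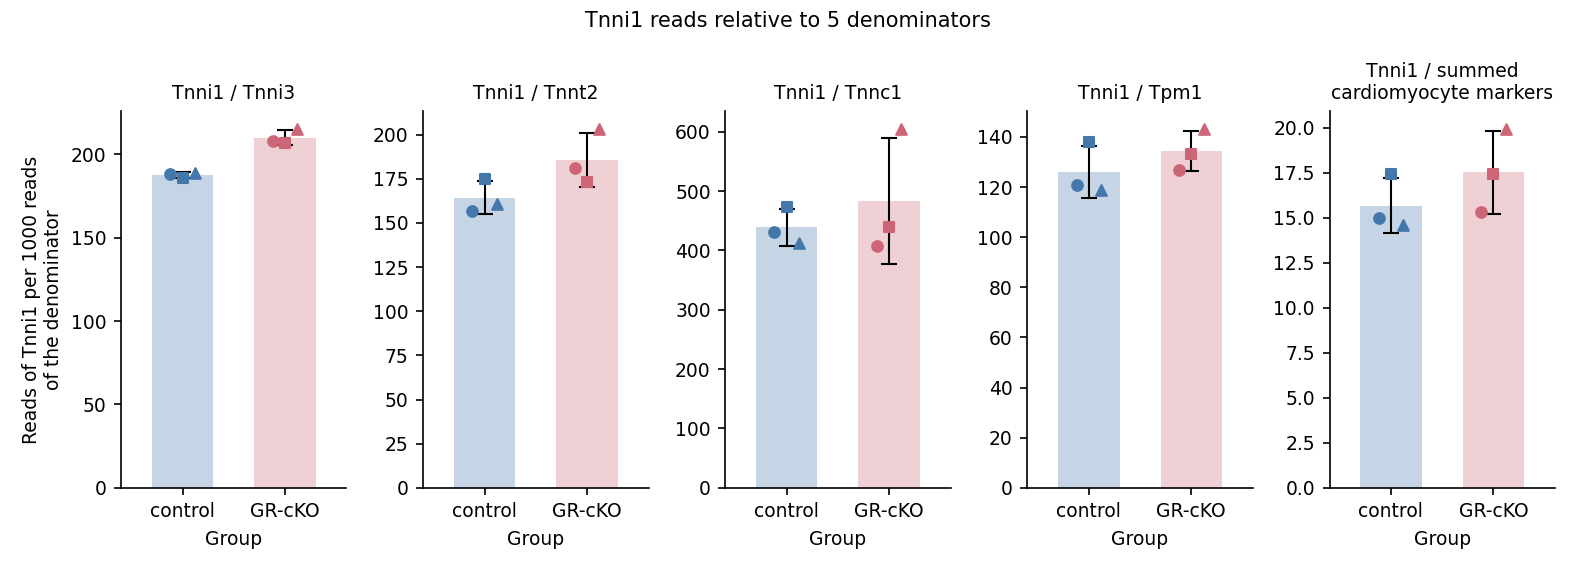
Tnni1 reads per 1000 reads of Tnni3, Tnnt2, Tnnc1, Tpm1 or the summed cardiomyocyte markers (y axis, separate scale for each panel) in controls and GR-cKO libraries (x axis). Bars are means, error bars SD (n = 3) and points single libraries, with circles for replicate 1, squares for replicate 2 and triangles for replicate 3. Only against Tnni3 do the GR-cKO libraries (207 to 215) all lie above the control libraries (186 to 189).

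By its own level Tnni1 (ENSMUSG00000026418, chr1:135779434-135810989, plus strand) was also higher in all GR-cKO libraries, but did not pass over all genes. It had 1145, 1133 and 1127 CPM in control replicates 1, 2 and 3 and 1281, 1233 and 1708 CPM in GR-cKO replicates 1, 2 and 3. The controls lay within a coefficient of variation of 0.838%, and GR-cKO replicate 3 was far above the other 2 knockouts. The level was 1135 ± 9.51 CPM in controls and 1407 ± 261 CPM in knockout hearts (± SD over 3 hearts a group). Its log2 fold change was 0.31 (SE 0.122, 95% interval 0.05 to 0.57, unadjusted p = 0.0204, edgeR adjusted p = 0.998). Without GR-cKO replicate 3 it was 0.15, with an unadjusted edgeR p of 0.109.

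Tnni3 (ENSMUSG00000035458, chr7:4518305-4524229, minus strand), cardiac troponin I, was the more abundant form in every heart. Its level was 6093, 6089 and 5974 CPM in control replicates 1, 2 and 3 and 6151, 5968 and 7936 CPM in GR-cKO replicates 1, 2 and 3. The groups overlapped, and only GR-cKO replicate 3 stood above the rest. Its log2 fold change was 0.14 (SE 0.114, 95% interval -0.10 to 0.38, edgeR adjusted p = 0.998) and 0.00 without GR-cKO replicate 3. In GR-cKO replicates 1 and 2 the higher ratio thus came with Tnni1 above every control. Tnni3 lay just above the control range of 5974 to 6093 CPM in replicate 1 (6151 CPM) and just below it in replicate 2 (5968 CPM). Of the 2063 exon bases of Tnni3, 86 are shared with Dnaaf3 on the same strand, which had 335 reads in all 6 libraries together. Tnni2, the fast skeletal form and no member, had 7.13 to 9.14 CPM in controls and 8.43 to 13.1 CPM in knockout hearts.

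The troponin T genes, which encode the tropomyosin-binding subunit, did not separate the groups. Tnnt2 (ENSMUSG00000026414, chr1:135836354-135852260, plus strand), the cardiac form, had 7280.3, 6467 and 6994 CPM in control replicates 1, 2 and 3 and 7089, 7142 and 8410.2 CPM in GR-cKO replicates 1, 2 and 3. The highest value was again that of GR-cKO replicate 3, and the other 2 knockouts lay within the control range. Its log2 fold change was 0.13 (SE 0.106, 95% interval -0.10 to 0.35, edgeR adjusted p = 0.998), and 0.04 without that library. Tnnt2 made up 98.6 ± 0.309% of troponin T reads in controls and 98.5 ± 0.34% in knockout hearts (± SD over 3 hearts a group).

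Tnnt1 (ENSMUSG00000064179, chr7:4504570-4516382, minus strand), the slow skeletal form, was a minor component and varied within groups. It had 80.4, 111 and 108 CPM in control replicates 1, 2 and 3 and 97.1, 139 and 109 CPM in GR-cKO replicates 1, 2 and 3. In each group the female heart (replicate 1) had the lowest value. Its log2 fold change was 0.21 (SE 0.147, 95% interval -0.10 to 0.51, edgeR adjusted p = 0.998), and 0.25 without GR-cKO replicate 3. Tnnt1 to Tnnt2 ratios of 0.0111 to 0.0172 in controls and 0.0129 to 0.0195 in knockout hearts overlapped (log2 difference 0.08, exact permutation p = 0.8, and 0.19 without GR-cKO replicate 3). Whether this shift differs from that of Tnni1 to Tnni3 was not tested. Tnnt3 (ENSMUSG00000061723, chr7:142498836-142516009, plus strand), the fast skeletal form, had 16, 18 and 8 reads in controls and 9, 3 and 35 reads in the knockouts, in the same order. Its highest and its lowest count were both in knockout hearts.

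Troponin C came almost entirely from Tnnc1 (ENSMUSG00000091898, chr14:31208312-31211729, plus strand), which serves heart and slow muscle. It had 2662, 2390 and 2732 CPM in control replicates 1, 2 and 3 and 3144, 2809 and 2827 CPM in GR-cKO replicates 1, 2 and 3. All GR-cKO libraries lay above all controls, and here replicate 1, not replicate 3, was the highest. The means were 2594 ± 181 and 2927 ± 189 CPM (± SD over 3 hearts a group), a log2 fold change of 0.17 (SE 0.105, 95% interval -0.05 to 0.39, edgeR adjusted p = 0.998) that became 0.20 without GR-cKO replicate 3. Tnnc1 lies within the span of Nisch on the opposite strand, without a shared exon base. Tnnc2 (ENSMUSG00000017300, chr2:164777161-164779967, minus strand), the fast skeletal form, had 4, 8 and 4 reads in controls and 13, 0 and 47 reads in the knockouts, in the same order, and did not pass the filter on low counts. Of its 800 exon bases 592 overlap exons of Ube2c on the other strand, so its few reads have an uncertain source where the counting did not use strand.

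Tropomyosin reads came mainly from Tpm1, with 96.8 ± 0.411% of the reads of Tpm1 to Tpm4 in controls and 97.4 ± 0.624% in knockout hearts (± SD over 3 hearts a group). Tpm1 (ENSMUSG00000032366, chr9:67022590-67049406, minus strand), which encodes alpha-tropomyosin of heart muscle, had 9467, 8185 and 9432 CPM in control replicates 1, 2 and 3. In GR-cKO replicates 1, 2 and 3 it had 10117, 9283 and 11906 CPM. The groups overlapped through GR-cKO replicate 2. Its log2 fold change was 0.21 (SE 0.112, 95% interval -0.03 to 0.44, edgeR adjusted p = 0.998), and 0.10 without GR-cKO replicate 3. Reads are counted per gene, so the muscle and non-muscle transcripts of the tropomyosin genes were not told apart.

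Tpm2 and Tpm3 had nearly equal means in both groups. Tpm2 (ENSMUSG00000028464, chr4:43514711-43523765, minus strand), beta-tropomyosin of skeletal and smooth muscle, had 49.1, 54.8 and 53.2 CPM in controls and 65.2, 51.6 and 40.8 CPM in GR-cKO replicates 1, 2 and 3. Its highest and lowest values were both in knockout hearts, the lowest in replicate 3, where Tpm1 was highest. Its log2 fold change was 0.00 (SE 0.149, 95% interval -0.31 to 0.32), and 0.16 without GR-cKO replicate 3. Tpm3 (ENSMUSG00000027940, chr3:90072649-90100902, plus strand), a slow muscle and cytoskeletal tropomyosin, had 99.8, 99.4 and 97.9 CPM in controls and 102, 101 and 98.2 CPM in GR-cKO replicates 1, 2 and 3. It varied least among the knockouts, by a coefficient of variation of 1.82%, against 18.6% for Tnni1, and its log2 fold change was 0.02 (95% interval -0.21 to 0.24). A near-identical copy, Tpm3-rs7, took 5 to 21 reads per library, so the count of Tpm3 is uncertain by reads that fit both. Tpm4, a non-muscle tropomyosin and no member, had 137, 159.7 and 145 CPM in controls and 130.3, 148 and 96.6 CPM in knockout hearts, lowest again in replicate 3.

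**Figure D2:**
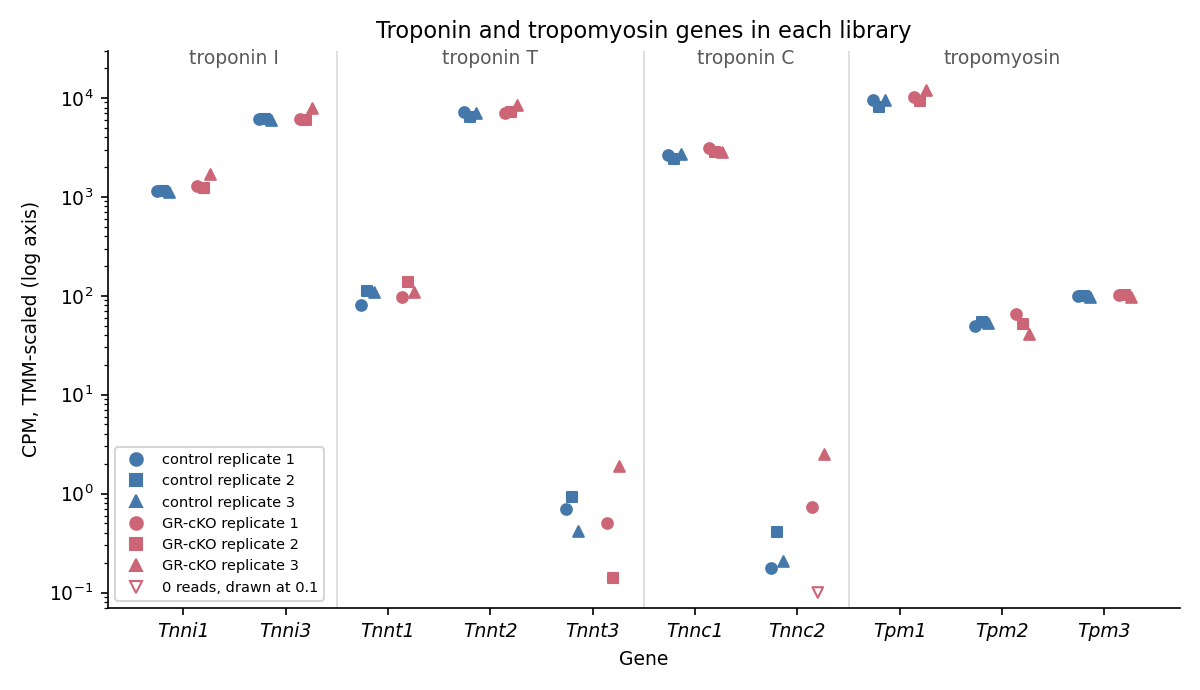
Level of each member (x axis, grouped by subunit) in each library as TMM-scaled CPM (y axis, log scale), blue for control and red for GR-cKO, with a marker shape per replicate. The cardiac genes lie between 2390 and 11906 CPM, Tnni1 between 1127 and 1708 CPM, and Tnnt3 and Tnnc2 at or below 2.53 CPM, an open triangle marking the library without a Tnnc2 read.

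A 3′ read count follows transcripts and not their length, so CPM can be set side by side between genes, apart from differences in how well each 3′ end is captured. In control hearts the order of mean level was Tpm1 (9028 ± 730 CPM), Tnnt2 (6914 ± 412), Tnni3 (6052 ± 67.5), Tnnc1 (2594 ± 181) and Tnni1 (1135 ± 9.51). Tnnt1 (99.8 ± 16.9) and Tpm3 (99.0 ± 1.01) came next and did not differ beyond their spread, and Tpm2 (52.4 ± 2.95), Tnnt3 (0.681 ± 0.253) and Tnnc2 (0.265 ± 0.127) followed (± SD over 3 hearts a group). The order in GR-cKO means was the same except that Tnnc2 (1.08 ± 1.30) came before Tnnt3 (0.842 ± 0.919), a pair that overlapped in both groups. Summed over isoforms, troponin I (7196 ± 76.2 CPM in control, 8103 ± 1349 in knockout hearts) and troponin T (7014 ± 398 and 7663 ± 744) were at similar levels, troponin C was lower (2595 ± 180.5 and 2928 ± 188) and tropomyosin higher (9326 ± 717 and 10713 ± 1305). The 10 members took 2.63 ± 0.125% of mouse gene reads in controls and 2.87 ± 0.0956% in knockout hearts.

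Over the comparison as a whole, none of the 9 members that passed the count filter was past the edgeR threshold. At an unadjusted p under 0.05 there was 1 member, Tnni1, where 4.2% of the 14860 tested genes were. Without GR-cKO replicate 3 it was Tnnc1, with an unadjusted edgeR p of 0.0446, and not Tnni1, where 790 of 15385 tested genes were. Tnni1 and Tnnc1 were higher in knockout hearts without overlap, 2 of 9, where 4.7% of tested genes were higher in this way. The median log2 fold change of the 9 was 0.17 against 0.01 over all tested genes, and no estimate was below 0 on all libraries. Over the 15 alternatives run for each gene, Tpm2 (0.00 on all libraries) was below 0 in 7, Tnnt3 in 3 and Tpm3 in 1, and the other 6 members in none. With scaling by library totals Tpm2 and Tpm3 were at -0.02. A direction for Tpm2 therefore has no meaning. The lowest bound of the 95% intervals, Tnnt3 aside, was -0.31 and the highest 0.57, so for the well-read members the intervals leave out a change of 2-fold in either direction.

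**Figure D3:**
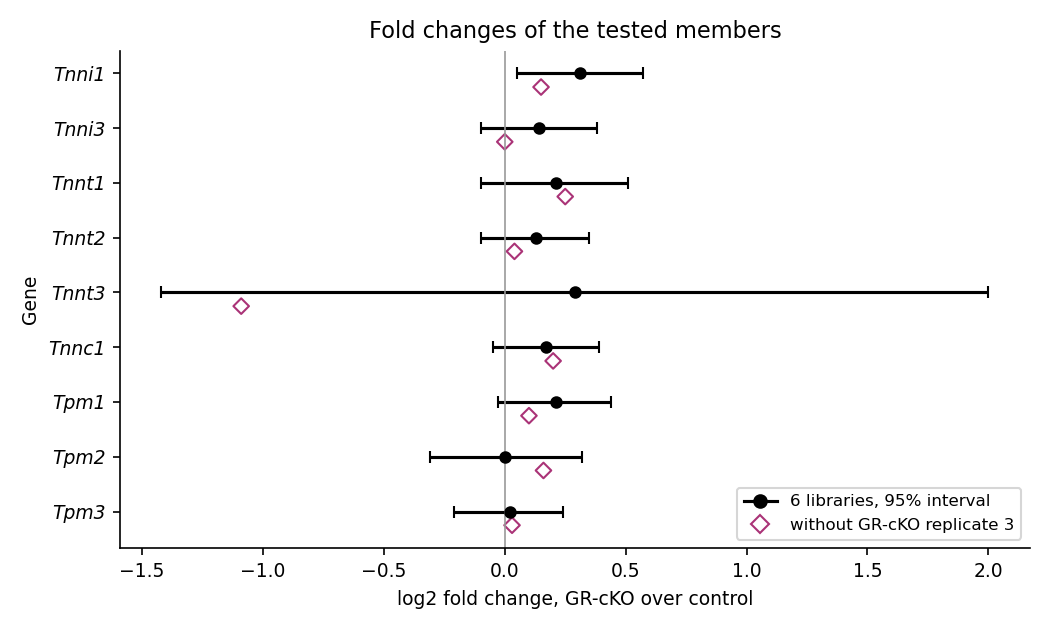
Log2 fold change of GR-cKO over control (x axis) for the 9 tested members (y axis), with filled circles and 95% intervals from all 6 libraries and open diamonds for the estimate without GR-cKO replicate 3. The interval of Tnni1 (0.05 to 0.57) lies above 0 and the others include it, and without that replicate the estimate moves to 0.15 for Tnni1, 0.00 for Tnni3 and -1.09 for Tnnt3.

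Within the knockout group, most abundant members were high in the same library. As a deviation from the 6-library mean, log2 CPM in GR-cKO replicate 3 was 0.442 for Tnni1, 0.325 for Tnni3, 0.30 for Tpm1 and 0.223 for Tnnt2, but 0.039 for Tnnc1. In the same library Tpm2 was at -0.347 and Tpm3 at -0.021. The fast skeletal genes Tnnt3 (35 reads) and Tnnc2 (47 reads) were also highest there. In control replicate 2, Tpm1 (-0.240), Tnnc1 (-0.203) and Tnnt2 (-0.156) had their lowest values, and Tnni1 (-0.150) did not follow them below the other controls. Whether the high share of Gm42418 reads in GR-cKO replicate 3 bears on these values was not tested.

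**Figure D4:**
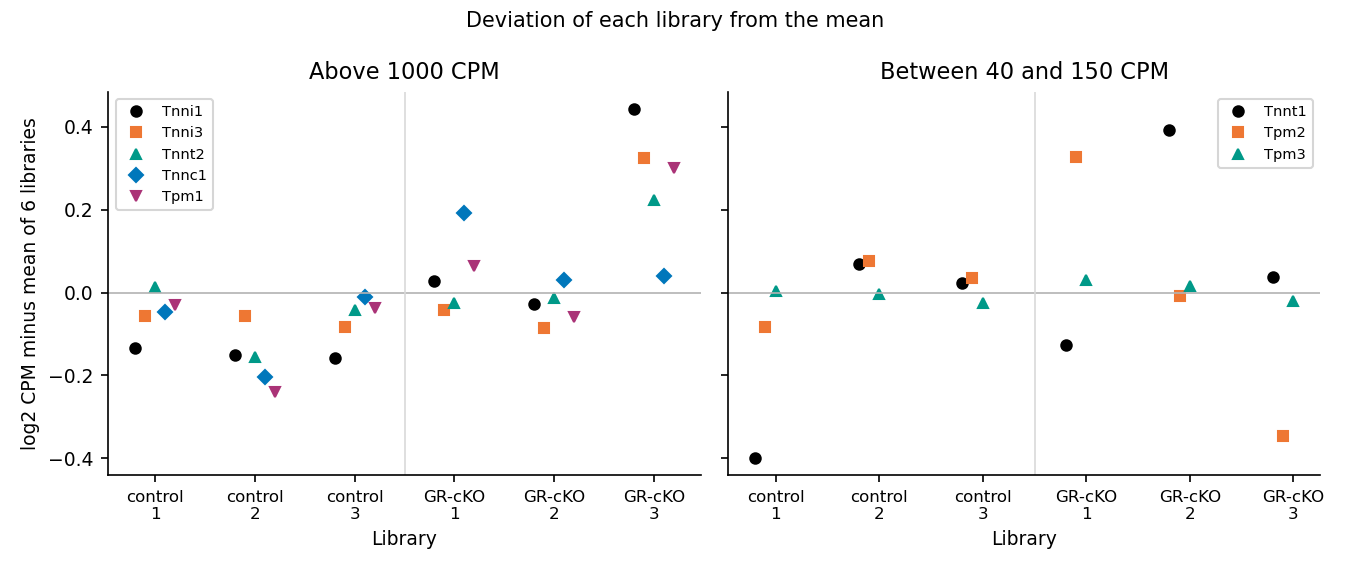
Deviation of log2 CPM in each library (x axis) from the mean of the 6 libraries (y axis) for members above 1000 CPM (left) and between 40 and 150 CPM (right), a marker shape and colour per gene. In GR-cKO replicate 3, Tnni1 (0.442), Tnni3 (0.325) and Tpm1 (0.30) are at their highest and Tpm2 (-0.347) at its lowest.

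Troponin I and troponin T genes lie in pairs in the genome. Tnni1 lies 25.4 kb from Tnnt2 on chromosome 1, and Tnni3 1.9 kb from Tnnt1 on chromosome 7. Tnni2 and Tnnt3 are 54.4 kb apart, also on chromosome 7. The root mean square difference of centred log2 CPM between Tnni1 and its neighbour Tnnt2 over the 6 libraries was 0.12, larger than that to Tnni3 on another chromosome (0.084) or to Tpm1 (0.097). Among 6106 other genes with at least 20 CPM, Cav3 (0.03), Atf4 (0.036) and Thra (0.045) were closest to Tnni1 by this measure. Cav3, the caveolin of muscle membranes, had 208, 204 and 213 CPM in controls and 239.5, 224 and 305 CPM in knockout hearts. Thra, a thyroid hormone receptor gene, had 305, 294 and 299 and 312, 328 and 439 CPM. Atf4, a stress-responsive transcription factor, had 95.3, 98.4 and 92.8 and 103, 102 and 145 CPM. Each of the 3 was highest in GR-cKO replicate 3, as Tnni1 was. This follows from picking them by their likeness to Tnni1 over the same 6 libraries. None passed the edgeR test (adjusted p = 0.998).

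Partners of the troponin complex gave no call. Of 24 thin filament partners 22 were tested, 14 higher and 8 lower, with a median log2 fold change of 0.04 and none past the threshold. Among the 22, 1 was higher without overlap, as were 699 of all 14860 tested genes. Of those 14860 genes, 7619 were higher and 7241 lower. The 3 most abundant were Actc1, cardiac actin (6777 ± 198 CPM in controls and 7051 ± 386 in knockout hearts, log2 fold change 0.06), Mybpc3, cardiac myosin-binding protein C (3714 ± 625 and 4342 ± 533, 0.23), and Actb, a cytoplasmic actin (3152 ± 147 and 3432 ± 294, 0.12). All 10 sarcomere isoforms of the pre- and postnatal heart were tested, 8 higher and 2 lower (median 0.13), with none past the threshold. Only 1 of the 10 did not overlap between the groups, and it was higher in knockout hearts, where 4.7% of all tested genes were higher in this way. The 3 most abundant isoforms overlapped. Myl3, a ventricular light chain, was at 30505 ± 5623 and 34963 ± 3336 CPM, Myl2, its regulatory counterpart, at 7075 ± 344 and 7724 ± 899 CPM, and Myh6, the adult myosin heavy chain, gave a log2 fold change of 0.12.

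Genes that act on troponin after transcription or on its splicing did not pass either. Of 19 kinases and phosphatases of troponin, all tested, 14 were higher and 5 lower (median 0.08), where 7619 of all 14860 tested genes were higher. Among the 19, 1 was lower without overlap, as were 783 of the 14860. The most abundant was Prkaca, the catalytic subunit of protein kinase A, at 1681 ± 251 CPM in controls and 1889.7 ± 175 CPM in knockout hearts (± SD over 3 hearts a group). The phosphatase subunits Ppp1ca (619 ± 27.8 and 653 ± 61.0 CPM) and Ppp1cb (200.4 ± 5.96 and 188 ± 9.97 CPM) went to opposite sides within the spread. Of 13 muscle splicing regulators, which set the exon choice of Tnnt2 and other sarcomere genes, 11 were higher and 2 lower (median 0.08). Among the 13, 2 were higher without overlap, Hnrnpu being 1 of them, where 4.7% of all tested genes were higher in this way. Rbm24 was at 487 ± 39.5 and 532 ± 90.3 CPM, Qk at 347 ± 7.02 and 377 ± 19.6 CPM and Hnrnpu at 299.6 ± 8.51 and 321 ± 9.78 CPM. Reads at the 3′ end do not show the splice forms themselves.

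Markers of other muscle were measured because Tnni1, Tnnt1, Tnnt3, Tnnc2 and Tpm2 are also genes of skeletal or smooth muscle. Of 24 skeletal muscle markers, 20 were under 5 CPM in every library and the myogenic factors Myod1, Myf5, Myf6 and Pax7 had 0 reads in all. Their summed level was 47.9 to 59.0 CPM in controls and 44.4 to 57.8 CPM in knockout hearts, lowest in GR-cKO replicate 3, the library with the most Tnnt3 and Tnnc2 reads. The most abundant were Myl1 (16.9 ± 3.01 and 12.5 ± 5.36 CPM), Mybpc2 (10.4 ± 0.157 and 12.1 ± 3.58 CPM) and Tnni2. Tnni1 itself was at 1127 CPM or more in every library, above the summed level of the skeletal list. Whether skeletal muscle tissue added to the Tnni1 reads was not tested. Of 14 smooth muscle markers 7 were higher and 7 lower, with a median log2 fold change of -0.01. Their summed level was 1668 to 1912 CPM in controls and 2014 to 2108 CPM in knockout hearts, without overlap. This sum includes Acta2, the most abundant of the 14, and no other single marker separated the groups, so it does not describe the list as a whole. Acta2, smooth muscle actin, was at 926, 777 and 719.5 CPM in control replicates 1, 2 and 3 and 1096, 1125 and 1089.5 CPM in GR-cKO replicates 1, 2 and 3. It was higher in every knockout heart (807 ± 106 and 1103 ± 18.6 CPM, log2 fold change 0.45), with an unadjusted edgeR p of 0.00084 and an edgeR adjusted p of 0.998. Acta2 was the only 1 of the 14 that did not overlap, where 4.7% of all tested genes were higher in this way. Rgs5 was at 531 ± 40.6 and 533 ± 93.1 CPM and Smtn at 120.3 ± 10.7 and 133 ± 24.1 CPM. Of 12 atrial markers 2 were higher and 10 lower, with a summed level of 2831 to 4677 CPM in controls and 2619 to 4053 CPM in knockout hearts. Only 1 of the 12 did not overlap between the groups, and it was higher in knockout hearts, against the direction of most of the list. Of all 14860 tested genes, 699 were higher and 783 lower without overlap. No atrial marker passed the adjusted threshold. Nppa (1577 ± 402 and 1432 ± 139 CPM), Myl7 (1001 ± 329.9 and 869.6 ± 334 CPM) and Myl4 (503 ± 130.2 and 432 ± 161 CPM) led the atrial list, and each overlapped. The part of smooth muscle and atrial content in the Tnni1 to Tnni3 ratio was not tested.

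No other isoform ratio separated the groups. Tpm2 to Tpm1 ratios were 0.00519, 0.0067 and 0.00564 in controls and 0.00644, 0.00556 and 0.00343 in knockout hearts (log2 difference -0.22, exact permutation p = 0.6). Without GR-cKO replicate 3 the sign of this difference turned, to 0.04. Tpm3 to Tpm1 ratios were 0.0105, 0.0121 and 0.0104 in controls and 0.0101, 0.0109 and 0.00824 in knockout hearts (log2 difference -0.19, exact p = 0.3), and the difference was -0.07 without GR-cKO replicate 3. The ratios with the fast skeletal genes Tnnt3 and Tnnc2 rested on 0 to 47 reads per library and gave exact permutation p-values of 0.8 and 0.9. After adjustment over the 6 ratios, these 5 were at 0.9.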

How the data were processed

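Whole-heart RNA of 6 mice at postnatal day 7 was sequenced from 100 ng per library by QuantSeq 3′ mRNA-Seq (FWD), per the labels' protocols. The deposited files hold raw counts of reads per Ensembl gene, 1 library per file. The submitters' processing notes name STAR 2.5.4a, featureCounts 1.6.2, cutadapt 1.16 and DESeq2 1.18.1, with GRCm38 as the build. Annotation release and strand setting: not given in the sources used here.

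Symbols and coordinates came from GENCODE M21 (GRCm38), and promoter sequences from RefSeq (GRCm38.p6), where 9 of the 10 members had a window. Spike-in rows were left out of the tested genes, and their summed reads served as an alternative scaling. With edgeR 4.0.16 in R 4.3.3, filterByExpr kept 14860 genes, which were tested for genotype by the quasi-likelihood test (TMM, robust dispersion) with Benjamini-Hochberg adjustment over all of them and a threshold of 0.05. The script was tested on simulated data. The log2 CPM used a prior count of 2. Ratios of reads were compared by 2-sided exact permutation tests, with 0.5 read added to both genes for Tnnc2 to Tnnc1. Alternatives were DESeq2 1.42.0, limma voom 3.58.1, other scalings, no filter, sex or replicate number as a term, and each library left out.

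Members and gene lists were chosen with earlier results of these data known. Named genes were all members, Tnni2 and Tpm4, Nr3c1, the 3 genes of highest mean CPM in each list (the cardiomyocyte list repeats those of the sarcomere list) and the 3 closest to Tnni1. Dnaaf3, Nisch, Ube2c, Tpm3-rs7 and Gm42418 were named after their values were seen.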

Additional observations from a re-analysis of the deposited data

How the results depend on the processing

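None of the 10 members passed the adjusted threshold in any of the alternatives run, including DESeq2 and limma voom. The smallest adjusted p of a tested member over these alternatives was 0.832, for Tnni1 in edgeR without GR-cKO replicate 2. The number of members at an unadjusted p under 0.05 was 1 on all libraries, where 624 of 14860 tested genes were. Without the count filter it was 3 (Tnni1, Tnnc2 and Tpm1), with 1105 of 24330 genes. It was 0 in the male mice alone (537 of 15010 genes) and ran from 0 to 3 with a library left out. It was 0 without control replicate 1 (563 of 15308) or 3 (597 of 15394) and 3 without GR-cKO replicate 2 (862 of 15286). Without GR-cKO replicate 3 the single member was Tnnc1 (790 of 15385 genes). Of 135 member fold changes under alternatives 124 kept their sign and 11 did not. Tnnt3, with 3 to 35 reads, turned to -0.36 with limma voom and -0.19 with the replicate block, and ran from -1.09 to 0.80 with a library left out (-1.09 without GR-cKO replicate 3). Tpm2, at 0.00 on all libraries, was at -0.02 with library totals, limma voom or the replicate block, -0.01 with sex as a term, -0.22 in males alone, -0.04 without control replicate 1 and -0.18 without GR-cKO replicate 1. Tpm3 turned to -0.02 with library totals. The fold change of Tnni1 was 0.15 without GR-cKO replicate 3, and at most 0.39, the value without GR-cKO replicate 2.

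The Tnni1 to Tnni3 difference of 0.16 kept its direction in all 14 alternatives, from 0.09 (Tpm1 as denominator) to 0.17. With a library left out or in the males alone the sign could not turn, since every GR-cKO ratio lay above every control ratio. The alternatives with Tnnt2, Tpm1, Tnnc1 or the summed cardiomyocyte markers as denominator are other ratios, in which the groups overlapped. With a library left out, Tnnt1 to Tnnt2 ran from -0.11 to 0.21 (negative with control replicate 1 or GR-cKO replicate 2 left out) and Tnnt3 to Tnnt2 from -1.32 to 0.43 (positive without GR-cKO replicate 2). Tnnc2 to Tnnc1 ran from -1.23 to 2.14 (negative with control replicate 1, GR-cKO replicate 1 or GR-cKO replicate 3 left out) and Tpm2 to Tpm1 from -0.41 to 0.04 (positive without GR-cKO replicate 3). Tpm3 to Tpm1 ran from -0.27 to -0.07. The causes were not tested. The labels do not say that replicate numbers mark pairs, though same-numbered libraries were of the same sex. Deviations of same-numbered libraries had correlations across genes of 0.062, 0.056 and 0.014. Those of other pairs ran from -0.089 to 0.029. Correlations this weak do not settle whether the numbers mark pairs. The replicate block leaves the Tnni1 to Tnni3 difference at 0.16 by construction. Its exact sign-flip p was 0.25, the smallest 3 pairs allow. With the block, 644 genes had an unadjusted p under 0.05 against 624. Depth limits Tnnt3 and Tnnc2 most, with at most 47 reads in a library.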
